A study of Mus musculus with 2 samples.

Results

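The goblet and Paneth-like secretory cells of mouse colorectal tumours were taken as the 6% of epithelial barcodes with the highest mean expression of 8 secretory genes: Muc2, Spink4, Reg4, Ang4, Retnlb, Lyz1, Tff3 and Fcgbp. They were 343 of 5718 gated epithelial barcodes, out of 16168 barcodes in all. A barcode had to hold at least 500 genes, at least 1500 unique molecular identifiers (UMIs) and at most 25% mitochondrial UMIs. The epithelial gate asked for at least 8 UMIs of Epcam, Krt8, Krt18 and Cldn7 together per 10000 UMIs of the barcode (CP10k) and for less than 1 CP10k of the leukocyte gene Ptprc. The score was the mean of ln(1 + CP10k) over the 8 genes, with both libraries pooled. The members were thus chosen on measured values of these cells, and the levels of the 8 genes inside the set are a description to which no test applies.

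Both groups of mice carried floxed Mtch2 alleles (Mtch2fl/fl) and received AOM-DSS, the carcinogen azoxymethane followed by dextran sulfate sodium, which injures the colonic lining. The cKO group also carried VilCre, in which the Villin promoter drives Cre recombinase in the intestinal epithelium, and the WT group carried the floxed alleles without Cre. Mtch2 encodes a carrier homologue of the outer mitochondrial membrane. Tumours were pooled within each genotype before trypsin dissociation and 10x Genomics droplet sequencing, so each genotype is 1 library of several animals. Their age and number are not known here. The design therefore allows no test of genotype, and every interval below is an exact 95% interval that covers counting error only.

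Goblet cells store and release Muc2, the gel-forming mucin of intestinal mucus, together with proteins that crosslink and organise the gel. Paneth cells sit at the base of small intestinal crypts and release lysozyme, alpha-defensins and other antimicrobial proteins, and they also supply Wnt ligands to neighbouring stem cells. The normal mouse colon holds abundant goblet cells and lacks Paneth cells, but cells with Paneth genes are known from intestinal tumours and inflamed colon. Both lineages arise from progenitors that express the transcription factor Atoh1.

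Of the gated epithelial barcodes, 86 of 2094 (4.11%, interval 3.30 to 5.05) were secretory in the cKO library, against 257 of 3624 (7.09%, interval 6.28 to 7.98) in the WT library. The difference of -2.98 percentage points had a counting interval of -4.18 to -1.74. After every cell was thinned to 1500 UMIs before scoring, the shares were 3.92% in cKO and 7.37% in WT. Among cells with 3000 UMIs or more they were 3.95% in cKO and 5.92% in WT, a choice made after the depths were seen. The cKO share was lower under each of these choices.

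The score cut lay at 0.897, the 10 members just above it scored 0.897 to 0.919, and the 10 barcodes just below it scored 0.870 to 0.896. No gap separated them, since 28 members lay within 10% above the cut and 61 other barcodes within 10% below it. The median score was 1.76 in members, 0.157 in the other gated cells and 0.132 in a leukocyte gate of Ptprc-positive barcodes. In that leukocyte gate 0 of 970 cKO barcodes reached the cut, which allows a share of up to 0.380%, and 0 of 370 WT barcodes, which allows up to 0.992%. Among all barcodes of any depth, however, 5.12% of cKO (344) and 15.01% of WT barcodes (1418) reached the same score.

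The cKO members held 3487702 UMIs and the WT members 6916276. Depth differed between the libraries: the median member had 16822 UMIs in cKO and 6399 in WT, and 17 cKO and 77 WT members had fewer than 3000. The other gated cells had medians of 28093 UMIs in cKO and 13294 in WT. Scrublet marked 0 cKO and 18 WT members as doublets, of which 15 were Paneth-type as defined below. By sex-linked transcripts, 15.1% of cKO (13) and 22.96% of WT members (59) came from female mice, and the secretory share was 3.89% in cKO and 5.29% in WT among female cells and 3.21% in cKO and 6.13% in WT among male cells. There were 22 barcode sequences found in both libraries, of which 1 cKO and 2 WT barcodes were members. The part of depth, sex and doublets in the differences below was not tested.

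Markers of non-epithelial, squamous, enteroendocrine and tuft lineages summed to less than the goblet and Paneth lists in the summed secretory cells. Values are UMIs per 1000000 UMIs of the summed cells (CPM). The 4 T cell markers summed to 2.87 CPM in cKO and 5.93 in WT, with Cd3e at 0 in cKO, and the 4 B cell markers to 3.73 in cKO and 0.578 in WT, with Ms4a1 at 0 in WT. The 5 macrophage markers summed to 12.3 CPM in cKO and 53.9 in WT, the 5 fibroblast markers to 8.60 and 17.9, the 4 endothelial markers to 4.01 and 2.89, and the 4 erythroid markers to 25.8 and 68.8. The 4 plasma cell markers stood at 389 CPM in cKO and 127 in WT, the 5 neutrophil markers at 96.1 and 88.8, the 4 mast cell markers at 81.1 and 177, and the 5 squamous markers at 59.1 and 19.5. The 20 enteroendocrine genes summed to 97.2 CPM in cKO and 97.3 in WT, with 6 of them at 0 in cKO and 5 in WT, and the 14 tuft cell genes to 54.2 in cKO and 63.0 in WT. The goblet list, by comparison, summed to 9815 CPM in cKO and 10945 in WT, and the Paneth list to 24061 in cKO and 19359 in WT. Genes of absorptive colonocytes were not low. The 27 of them summed to 4725 CPM in cKO and 3809 in WT secretory cells, against 3524 in cKO and 3332 in WT in the other gated cells.

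Mtch2, the targeted gene, had 81 UMIs (23.2 CPM) in cKO secretory cells and 528 UMIs (76.3 CPM) in WT secretory cells. Its log2 ratio of cKO over WT was -1.71 (interval -2.07 to -1.38), close to -1.98 in the other gated cells. It was -1.84 in goblet-type and -1.61 in Paneth-type cells. Tfrc, the transferrin receptor gene named in the series title, stood at 128 CPM in cKO and 104 in WT, and E2f4, the transcription factor gene named there, at 22.9 and 24.3.

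Each member was called goblet-type or Paneth-type by the larger of 2 set means of ln(1 + CP10k). The goblet set was Muc2, Tff3, Fcgbp, Clca1 and Zg16, and the Paneth set was Lyz1, Defa17, Defa21, Defa22, Defa24 and Mmp7. In cKO, 49 members (56.98%) were goblet-type and 37 (43.0%, interval 32.4 to 54.2) Paneth-type, whereas in WT 95 (37.0%) were goblet-type and 162 (63.0%, interval 56.8 to 69.0) Paneth-type. The Paneth-type share was 20.0 percentage points lower in cKO (difference -20.0, interval -32.2 to -7.26). It was also lower among the members in the top 3% of scores, where 20 of 45 cKO and 82 of 127 WT cells were Paneth-type (difference -20.1), and among the remaining members, where 17 of 41 cKO and 80 of 130 WT cells were (difference -20.1). Genes of the Paneth set were also found more often in WT than in cKO leukocyte-gate barcodes. Lyz1 had a UMI in 68.1% of WT and 32.7% of cKO barcodes there, and Defa24 in 56.8% and 27.4%. The part of such stray RNA in the Paneth-type share was not tested.

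**Figure D1:**
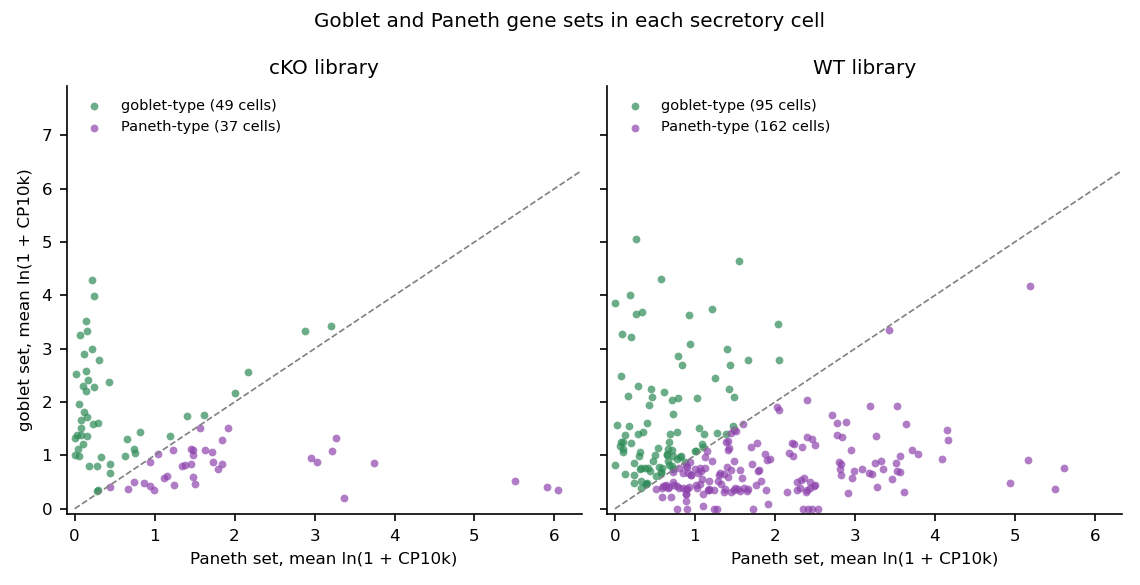
Mean ln(1 + CP10k) of the Paneth set (x axis) and of the goblet set (y axis) in each secretory cell of the cKO library (left) and the WT library (right), with the line of equal means dashed. Cells spread along both axes and between them, and 13 cKO and 49 WT cells lie within 0.25 of the dashed line.

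The types formed a range rather than separate groups, as the plot of the set means shows. In all, 62 cells lay within 0.25 of equal set means. When a cell counted as high in a set only above the 95th percentile of the other gated cells, 38 cKO and 71 WT members were high in the goblet set alone, 5 cKO and 38 WT members in the Paneth set alone, and 40 cKO and 141 WT members in both. Another 3 cKO and 7 WT members were high in neither. The rank correlation between the set means across members was -0.37 in cKO (86 cells) and -0.12 in WT (257 cells). These points share a library and differ in depth, so the correlations are descriptions only.

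Pairs of genes were compared in the same way. Across members, Lyz1 correlated with Mmp7 (Spearman rho 0.65 in cKO and 0.70 in WT), with Itln1 (0.70 in cKO and 0.55 in WT) and with Ang4 (0.56 in cKO and 0.60 in WT). Muc2 correlated weakly with Tff3 (0.16 in cKO and 0.24 in WT) and negatively with Lyz1 (-0.36 in cKO and -0.14 in WT). Defa22 and Defa24, which the rule did not use, correlated at 0.37 in cKO and 0.34 in WT. Lyz1, Ang4, Muc2 and Tff3 helped to choose the cells, and the choice shapes correlations among them.

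The promoter windows of genes on which the account below turns are shown here, since they represent both poles of the set. Each runs from 250 bases before to 50 bases after the start of the gene (RefSeq, GRCm38.p6), 5′ to 3′ on the gene's strand. Capitals mark 3 motifs searched on both strands: the TATA box TATAAA, the E-box CAGCTG, which basic helix-loop-helix factors bind, and the TCF/LEF core CTTTGA. On the other strand that core reads TCAAAG. Muc2 lies at chr7:141690090-141690389 on the plus strand, Lyz1 at chr10:117292819-117293118 on the minus strand, Defa22 at chr8:21162027-21162326 on the plus strand and Defa30 at chr8:21134400-21134699 on the plus strand.
Muc2: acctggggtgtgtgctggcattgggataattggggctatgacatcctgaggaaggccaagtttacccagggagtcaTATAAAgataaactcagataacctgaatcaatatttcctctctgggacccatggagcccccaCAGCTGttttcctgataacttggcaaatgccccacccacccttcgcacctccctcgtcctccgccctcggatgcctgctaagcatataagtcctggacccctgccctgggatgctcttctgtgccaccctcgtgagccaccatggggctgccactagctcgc
Lyz1: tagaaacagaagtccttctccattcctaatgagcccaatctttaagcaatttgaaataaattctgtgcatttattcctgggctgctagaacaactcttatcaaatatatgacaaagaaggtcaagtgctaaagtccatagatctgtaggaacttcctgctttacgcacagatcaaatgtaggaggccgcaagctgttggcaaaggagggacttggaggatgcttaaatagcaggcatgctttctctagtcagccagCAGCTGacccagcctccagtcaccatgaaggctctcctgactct
Defa22: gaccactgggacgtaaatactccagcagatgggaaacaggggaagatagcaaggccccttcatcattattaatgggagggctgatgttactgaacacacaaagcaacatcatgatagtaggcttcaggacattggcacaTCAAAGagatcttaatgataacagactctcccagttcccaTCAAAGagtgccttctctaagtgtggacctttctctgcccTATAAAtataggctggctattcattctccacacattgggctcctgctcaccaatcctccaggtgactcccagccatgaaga
Defa30: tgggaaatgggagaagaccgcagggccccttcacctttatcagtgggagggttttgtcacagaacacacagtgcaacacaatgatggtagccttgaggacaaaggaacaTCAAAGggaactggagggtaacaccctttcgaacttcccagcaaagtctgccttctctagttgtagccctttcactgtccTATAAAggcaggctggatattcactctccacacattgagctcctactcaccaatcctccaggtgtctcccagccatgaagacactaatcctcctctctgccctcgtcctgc

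The Muc2 window held 1 TATAAA match and 1 E-box, and the Lyz1 window 1 E-box. The Defa22 window held 1 TATA box and 2 TCF/LEF cores, and the Defa30 window 1 TATA box and 1 TCF/LEF core. The TATAAA match of Muc2 lies further upstream of the start than those of Defa22 and Defa30. Of 32851 mouse promoter windows of the same length, 13.6% held the TATA box, 16.3% the E-box and 16.003% the TCF/LEF core. The Defa21 window, at chr8:21025295-21025594, was 100% identical to that of Defa22, and both matched the Defa30 window at 66.7% of bases. A match is a run of letters and not a binding site, and a missing motif says nothing of the factor.

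Muc2 stood at 4182 CPM in cKO secretory cells (interval 4115 to 4251) and 3149 CPM in WT secretory cells (interval 3108 to 3191), against 15.7 CPM in cKO and 23.8 in WT in the other gated cells. Within the types it was at 7288 CPM in cKO goblet-type and 925 in cKO Paneth-type cells, and at 5750 in WT goblet-type and 1698 in WT Paneth-type cells. The median member had 13.7 CP10k in cKO and 6.51 in WT, and the highest had 370 in cKO and 353 in WT. The lowest had 0 in each library, so Muc2 was spread over orders of magnitude inside each library.

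Tff3, a trefoil peptide that protects the mucosa, stood at 2273 CPM in cKO and 2541 in WT secretory cells. It was at 3151 CPM in cKO goblet-type against 1352 in cKO Paneth-type cells, and at 3423 in WT goblet-type against 2048 in WT Paneth-type cells. Fcgbp, a mucus protein that binds Muc2, was at 329 CPM in cKO and 430 in WT, and at 560 in cKO goblet-type against 87.5 in cKO Paneth-type cells. Of the 3 mucus genes of the rule, Tff3 separated the types least in both libraries. Muc2, Tff3 and Fcgbp all belong to the goblet set that defined the types, so their gaps describe the split and do not bear it out.

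Clca1, a metalloprotease of the mucus layer, and Zg16, a lectin-like mucus protein, were used in the split and not in the selection. Clca1 stood at 143 CPM in cKO and 195 in WT secretory cells, against 1.75 in cKO and 2.48 in WT in the other gated cells. Zg16 stood at 401 CPM in cKO and 435 in WT, against 4.99 in cKO and 5.01 in WT in the other gated cells. Both were found in a minority of members: Clca1 had a UMI in 28 of 86 cKO and 45 of 257 WT members, and Zg16 in 22 of 86 cKO and 44 of 257 WT members.

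Spink4, a Kazal-type peptidase inhibitor, was the most abundant of the 8 genes in the WT members and in the cKO members, and did not follow the split. It stood at 11421 CPM in cKO and 15301 in WT secretory cells, with 9821 CPM in cKO goblet-type against 13100 in cKO Paneth-type cells and 12696 in WT goblet-type against 16754 in WT Paneth-type cells. Reg4, a C-type lectin, was higher on the Paneth side, at 822 CPM in cKO goblet-type against 1995 in cKO Paneth-type cells and 1171 in WT goblet-type against 3645 in WT Paneth-type cells. Agr2, a disulfide isomerase needed for Muc2 folding, was at 4582 CPM in cKO goblet-type against 2600 in cKO Paneth-type cells, but at 4346 and 4441 in the WT types. Spink4, Reg4 and Agr2 were thus found in both types, with Reg4 more than 2-fold higher on the Paneth-type side in both libraries.

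Lyz1, which encodes the lysozyme of mouse Paneth cells, stood at 8680 CPM in cKO secretory cells and 13290 in WT secretory cells, against 35.1 in cKO and 63.8 in WT in the other gated cells. It was at 748 CPM in cKO goblet-type against 16998 in cKO Paneth-type cells, and at 2657 in WT goblet-type against 19224 in WT Paneth-type cells. Ang4, a microbicidal ribonuclease, was at 164 CPM in cKO goblet-type against 1444 in cKO Paneth-type cells and at 876 in WT goblet-type against 2194 in WT Paneth-type cells. Mmp7, the protease that activates mouse alpha-defensins, was at 786 CPM in cKO goblet-type against 3142 in cKO Paneth-type cells and 1174 in WT goblet-type against 4543 in WT Paneth-type cells. The gap between the types was wider in cKO than in WT for Lyz1 and Ang4 and of like size for Mmp7. Lyz1 and Mmp7 belong to the Paneth set that defined the types, so their gaps describe the split and do not bear it out.

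**Figure D2:**
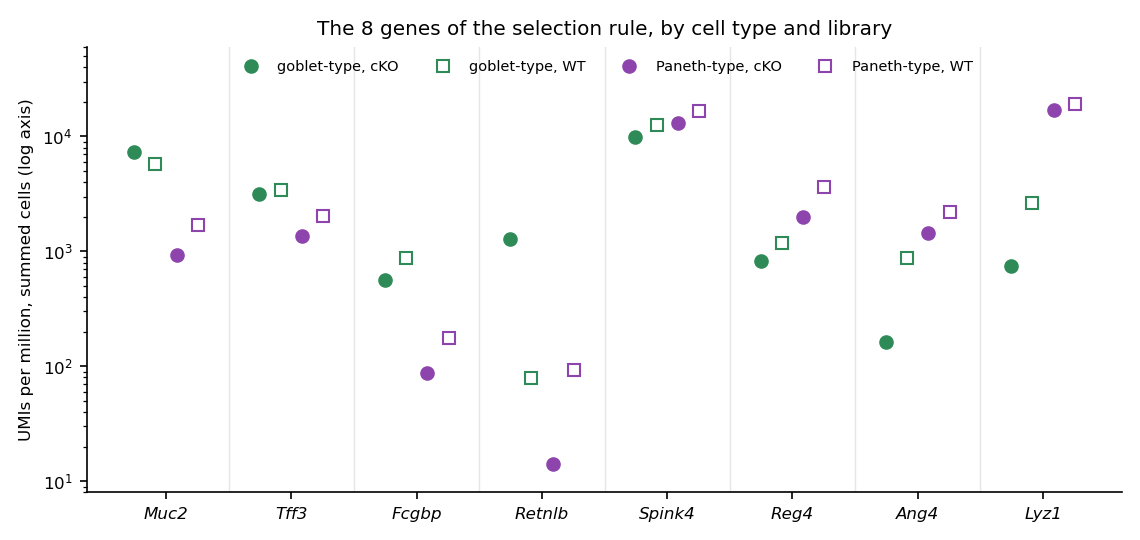
Summed CPM (log axis) of the 8 genes of the selection rule in goblet-type cells (green) and Paneth-type cells (purple), with filled circles for cKO and open squares for WT. Muc2, Tff3 and Fcgbp are higher in goblet-type cells of both libraries and Reg4, Ang4 and Lyz1 in Paneth-type cells of both, Spink4 differs little, and Retnlb is high in cKO goblet-type cells (1270) and under 100 in the 3 other groups. Muc2, Tff3, Fcgbp and Lyz1 also served to define the types.

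Free RNA can place UMIs of abundant genes in barcodes that do not express them, so the shares of cells with a UMI are set beside the leukocyte gate, whose median depth was 8078 UMIs in cKO and 13180 in WT. Muc2 had a UMI in 86.05% of cKO and 84.0% of WT members, against 23.8% of cKO and 33.0% of WT leukocyte-gate barcodes. Lyz1 had a UMI in 83.7% of cKO and 96.5% of WT members, against 32.7% and 68.1% of leukocyte-gate barcodes. Thinned to 1500 UMIs, the Lyz1 shares were 55.7% in cKO and 74.9% in WT members, against 7.39% in cKO and 14.3% in WT leukocyte-gate barcodes. The WT share of leukocyte-gate barcodes with a UMI was higher than the cKO share for 7 of the 8 genes, and Retnlb, at 3.40% in cKO and 0.541% in WT, was the other. The part of free RNA in the secretory share and in the Paneth-type share was not tested.

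In levels, the leukocyte gate held 39.2 CPM of Lyz1 in cKO and 83.7 in WT, and 33.2 CPM of Defa24 in cKO and 63.9 in WT. These values were close to those of the other gated epithelial cells, where Defa24 stood at 25.5 CPM in cKO and 55.5 in WT. The summed members were far above both, with 9894 CPM of Defa24 in cKO and 7323 in WT. Those sums rested on few cells, since 5 cells held 92.2% of Defa24 UMIs in cKO and 61.8% in WT. The median member had 0.215 CP10k of Defa24 in cKO and 3.58 in WT, so most members were not far above the leukocyte gate.

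Beyond the 8 genes, 161 of 3995 genes at 50 CPM or more were at least 2-fold higher in secretory than in other gated cells in both libraries, 4.03% of those compared. Because the cells were picked on a secretory score, genes that vary with it had to differ, and this count describes the set. Of 24 other goblet genes measured, 22 were higher in both libraries, with a median log2 ratio of 4.13 in cKO and 4.19 in WT. Of 19 other Paneth genes, 18 were higher, with medians of 7.24 in cKO and 6.76 in WT. The exception was Pnliprp2, a pancreatic lipase-related gene, at 47.3 CPM in cKO and 104 in WT secretory cells against 206 in cKO and 185 in WT in the other gated cells. All genes compared had medians of -0.10 in cKO and -0.11 in WT.

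The genes of largest ratio in both libraries were mostly alpha-defensins, which took 9 of the 12 places: Defa3, Defa5, Defa17, Defa21, Defa22, Defa24, Defa32, Defa34 and Defa36. The other 3 were Sval1, Clps and Mptx1. Sval1, a secreted protein gene of the seminal vesicle antigen family, stood at 1182 CPM in cKO and 1529 in WT secretory cells, against 3.96 in cKO and 5.64 in WT in the other gated cells, and had a UMI in 68 of 86 cKO and 159 of 257 WT members. Clps, which encodes the lipase cofactor colipase, stood at 236 CPM in cKO and 476 in WT, against 1.24 in cKO and 2.41 in WT in the other gated cells. Outside the defensins, Sval1 was the most widely detected of the 12 genes in both libraries.

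The machinery of mucin making was higher as a group. Of 28 glycosylation genes measured, 15 passed 2-fold in both libraries, and all 28 had a cKO ratio above 0 (median log2 ratio 1.18 in cKO and 1.11 in WT). Of all genes compared, 4.03% passed 2-fold and 36.9% had a cKO ratio above 0. Galnt7, which adds to O-glycan starts, stood at 335 CPM in cKO and 316 in WT secretory cells, against 74.95 in cKO and 75.3 in WT in the other gated cells. Gcnt3, a core-branching enzyme, stood at 59.6 CPM in cKO and 68.2 in WT, against 2.65 in cKO and 4.14 in WT. Fut4, a fucosyltransferase, stood at 55.6 CPM in cKO and 42.1 in WT, against 8.71 in cKO and 7.53 in WT. Of 44 genes of the endoplasmic reticulum and the unfolded protein response, 8 passed 2-fold, and 43 had a ratio above 0 in cKO, with medians of 0.59 in cKO and 0.74 in WT. Ern2, the stress sensor of mucus-secreting epithelium, stood at 74.8 CPM in cKO and 89.6 in WT against 7.28 in cKO and 8.43 in WT in the other gated cells.

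Among 11 transcription factors of the secretory lineage, 5 passed 2-fold, beside 4.03% of all genes. Atoh1, which commits progenitors to the lineage, stood at 68.8 CPM in cKO and 63.8 in WT secretory cells, against 0.42 in cKO and 1.096 in WT in the other gated cells. Spdef, which drives goblet and Paneth maturation, stood at 81.7 CPM in cKO and 96.3 in WT, against 1.03 in cKO and 1.62 in WT. Creb3l1, an endoplasmic reticulum-bound factor, stood at 184 CPM in cKO and 203 in WT, against 29.5 in cKO and 26.8 in WT. Atoh1 and Spdef were present in both types: Atoh1 was at 79.0 CPM in cKO goblet-type against 58.2 in cKO Paneth-type cells, and at 72.7 in WT goblet-type against 58.8 in WT Paneth-type cells.

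In the other direction, 109 of 4077 genes at 50 CPM or more in the other gated cells were at least 2-fold lower in secretory cells in both libraries, 2.67%. Those of largest ratio included Ifit1, Pcdh7, Cadps, Nrxn3, Car1, Cep112, Thsd7a, Clca4b, Ly6d, Khdc1a and Rarb. Car1, a carbonic anhydrase of colonocytes, stood at 32.7 CPM in cKO and 27.9 in WT secretory cells, against 137 in cKO and 200 in WT in the other gated cells. Cadps, a regulator of dense-core vesicle release, stood at 54.8 CPM in cKO and 65.9 in WT secretory cells, against 308 in cKO and 283 in WT in the other gated cells. Of 19 Wnt target and stem cell genes at 50 CPM or more in secretory cells, 0 were higher and 2 were lower in both libraries, beside 1.18% of all genes lower by that count, and their median ratio was -0.84 in cKO and -0.44 in WT.

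Between the types, 118 of 4414 genes at 50 CPM or more were at least 2-fold higher in goblet-type than in Paneth-type cells in both libraries (2.67%), and 79 were at least 2-fold lower (1.79%), the genes of selection and split left out. The split itself separates Paneth genes, so 13 of 15 other Paneth genes were lower in goblet-type cells, with medians of -7.33 in cKO and -2.73 in WT. Only 4 of 24 other goblet genes passed 2-fold, with medians of 0.69 in cKO and 0.30 in WT. The cKO Paneth median rests on defensins of which 1 cKO Paneth-type cell held most UMIs, such as 92.6% of Defa22 and 91.0% of Defa34. Of the goblet list, Klk1, a kallikrein protease, was at 621 CPM in cKO goblet-type against 106 in cKO Paneth-type cells and at 847 in WT goblet-type against 169 in WT Paneth-type cells. Hepacam2, an adhesion protein of secretory cells, was at 140 CPM in cKO goblet-type against 112 in cKO Paneth-type cells and at 163 in WT goblet-type against 152 in WT Paneth-type cells.

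The goblet-type side was led by Ccn3, Slc5a8, Thbs4, Meg3, Sycn, Itih5, Hsd11b2, Htr4, Dlg2, B3gnt7, Pck1 and Mptx1. Ccn3, a secreted matricellular protein, stood at 148 CPM in cKO goblet-type against 3.52 in cKO Paneth-type cells, and at 218 in WT goblet-type against 1.58 in WT Paneth-type cells. Sycn, the granule protein syncollin, stood at 233 CPM in cKO goblet-type against 12.9 in cKO Paneth-type cells, and at 202 in WT goblet-type against 12.6 in WT Paneth-type cells. Hsd11b2, which inactivates glucocorticoids, stood at 237 CPM in cKO goblet-type against 25.3 in cKO Paneth-type cells, and at 197 in WT goblet-type against 23.2 in WT Paneth-type cells. The log2 ratios of Sycn (4.14 in cKO and 3.99 in WT) and Hsd11b2 (3.21 in cKO and 3.08 in WT) were close in the libraries, while that of Ccn3 was 5.28 in cKO and 7.02 in WT. Meg3 rested on few cells, since 1 cell held 74.8% of its UMIs in cKO and 58.8% in WT.

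B3gnt7, a glycosyltransferase that extends mucin chains, stood at 234 CPM in cKO goblet-type against 9.99 in cKO Paneth-type cells, and at 161 in WT goblet-type against 22.8 in WT Paneth-type cells. It was 1 of 3 glycosylation genes of 31 that passed 2-fold between the types, and 28 of the 31 had a ratio above 0 in cKO (medians 0.76 in cKO and 0.44 in WT). Of 17 genes of absorptive colonocytes, 7 were higher in goblet-type cells and 3 lower. Of all genes compared, 2.67% were higher and 1.79% lower by these limits, and 50.5% had a ratio above 0 in cKO. Muc3, a membrane mucin of the brush border, stood at 509 CPM in cKO goblet-type against 93.4 in cKO Paneth-type cells and at 272 in WT goblet-type against 26.1 in WT Paneth-type cells. Guca2b, a guanylin-family peptide, went the other way, at 74.5 CPM in cKO goblet-type against 193 in cKO Paneth-type cells and 106 in WT goblet-type against 365 in WT Paneth-type cells. Each of the 13 mitochondrially encoded transcripts had a ratio above 0 in cKO, with a median of 0.52 in cKO and 0.51 in WT, and the median mitochondrial share of UMIs was 10.8% in cKO goblet-type against 4.85% in cKO Paneth-type cells and 6.90% in WT goblet-type against 4.92% in WT Paneth-type cells.

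The Paneth-type side was led by Defa34, Defa32, Defa30, Mptx2, Celf6, Defa36, Habp2, Defa3, Defa20, Itln1, Defa5 and Hamp2. Celf6 rested on 1 cell, which held 99.1% of its UMIs in cKO and 77.8% in WT. Habp2, a secreted serine protease, stood at 2.80 CPM in cKO goblet-type against 170 in cKO Paneth-type cells, and at 25.03 in WT goblet-type against 195 in WT Paneth-type cells. Itln1, a lectin for microbial glycans, stood at 98.0 CPM in cKO goblet-type against 3547 in cKO Paneth-type cells, and at 474 in WT goblet-type against 2272 in WT Paneth-type cells. Wnt3, the Wnt ligand of mouse Paneth cells, had 0 UMIs in cKO goblet-type cells and 35.8 CPM in cKO Paneth-type cells, and stood at 8.07 CPM in WT goblet-type against 42.6 in WT Paneth-type cells. Wnt and stem genes leaned to this side too, with 6 of 21 lower and 1 higher in goblet-type cells, beside 1.79% and 2.67% of all genes. Lgr5, the stem cell receptor, stood at 30.2 CPM in cKO goblet-type against 206 in cKO Paneth-type cells and at 77.1 in WT goblet-type against 209 in WT Paneth-type cells, while Cftr, the chloride channel gene, was the 1 that was higher.

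The defensin levels rested on few cells. In cKO, 1 Paneth-type cell of 141661 UMIs, not marked as a doublet, held 61.8% of all Defa24 UMIs, 92.6% of Defa22, 88.8% of Defa21, 86.5% of Defa30, 42.1% of Defa17, 85.0% of Mptx2 and 59.0% of Itln1. That cell also had 2760 Lyz1 and 47 Muc2 UMIs. In WT the richest cell of each of Defa24, Defa22, Defa21 and Defa30 held 17.9%, 39.9%, 60.7% and 23.9% of the UMIs. Defensins were concentrated in few cells in both libraries. The richest cell's share is not compared between libraries, since 37 cKO and 162 WT cells were Paneth-type and a smaller set can give its richest cell a larger share (20.9% in cKO and 7.6% in WT for Muc2).

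Counts of individual alpha-defensins are uncertain, since the genes are near copies of each other. Over the last 300 transcript bases, where 3' tags fall, 13 of 15 measured defensins had another defensin at 95% identity or more. The best match ranged from 53.9% to 99.7%, the last for pairs such as Defa17 and Defa3. Defa21 and Defa22 matched at 98.7%, and they also had the identical promoter window described above. How reads were divided among such copies is not known here.

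Between genotypes, 111 of 3999 genes at 50 CPM or more were at least 1.5-fold higher in cKO than in WT secretory cells (2.78%), and 190 were at least 1.5-fold lower (4.75%), the 8 rule genes left out. For gene lists the minimum was 10 CPM, at which 5.15% of 9364 genes were higher and 5.8% lower. Muc2 had a log2 ratio of 0.41 (interval 0.38 to 0.44), Tff3 of -0.16 (interval -0.20 to -0.12) and Fcgbp of -0.38 (interval -0.48 to -0.28). When each cell counted equally, by the mean of the per-cell CPM, the ratios of Tff3 and Fcgbp were 0.42 and 0.27, so their direction depended on how cells were weighted. Muc2 was higher in cKO both ways, at 0.37 per cell, but not within both types. It was higher in cKO than in WT goblet-type cells and lower in cKO than in WT Paneth-type cells. Its ratio was 0.14 with types weighted equally and 0.24 without the richest cell of each library.

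Spink4 (-0.42, interval -0.44 to -0.41), Reg4 (-0.98, interval -1.03 to -0.94), Ang4 (-1.13, interval -1.19 to -1.07) and Lyz1 (-0.61, interval -0.63 to -0.60) were lower in cKO secretory cells. These 4 genes were also lower per cell, at -0.21, -0.46, -0.94 and -0.40. Lyz1 and Ang4 were lower in cKO within goblet-type and within Paneth-type cells. The other gated cells had ratios of -1.16 for Spink4, -0.20 for Reg4, -1.53 for Ang4 and -0.86 for Lyz1, and the WT leukocyte gate likewise held more Lyz1 than the cKO gate. The part of free RNA in these ratios was not tested.

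Retnlb, a resistin-like protein that goblet cells release in response to bacteria and parasites, had the largest ratio of the 8 genes. It stood at 657 CPM in cKO (2291 UMIs) and 87.8 CPM in WT (607 UMIs), a log2 ratio of 2.90 (interval 2.77 to 3.04). Of those UMIs, 1 cKO goblet-type cell with 2271 Muc2 UMIs held 1434 (62.6%), 5 cKO cells held 97.4%, and 1 WT cell held 46.1%. Without the richest cell of each library the ratio was 2.39, and per cell it was 2.51. Retnlb had a UMI in 25.6% of cKO and 14.4% of WT members, and in 10.0% of cKO and 3.99% of WT members thinned to 1500 UMIs.

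The goblet list, with the rule genes left out, had 30 members at 10 CPM or more, of which 1 was higher and 2 lower in cKO. Of all genes, 5.15% were higher and 5.8% lower. Its median log2 ratio was -0.23, beside -0.02 over all genes and -0.19 for the same list in the other gated cells. By the mean per cell the median was 0.31, so the direction of the list turned with the weighting of cells. The gene that was higher was Mptx1, a mucosal pentraxin, at 850 CPM in cKO and 151 in WT, of which 1 cell held 80.1% in cKO and 39.4% in WT. The genes that were lower were the chemokine genes Ccl6, at 696 CPM in cKO and 1190 in WT, and Ccl9, at 57.6 in cKO and 114 in WT. Of 36 glycosylation genes, 1 was higher and 1 lower (median 0.11), and 0 of 45 endoplasmic reticulum genes passed 1.5-fold either way (median -0.12).

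Among 27 measured genes of the Paneth list, 9 were higher and 8 lower in cKO (median 0.30), beside 5.15% and 5.8% of all genes. By the mean per cell 11 were higher and 4 lower (median 0.15), beside 1003 and 1239 of all 9364 genes. By summed UMIs, the higher Paneth genes were defensins and related gene models, such as Defa30 at 2831 CPM in cKO and 688 in WT, and Defa22 at 2179 in cKO and 1189 in WT. The 8 lower ones included Mmp7, at 1936 CPM in cKO and 3336 in WT, Clps, at 236 in cKO and 476 in WT, Cd24a, a surface marker of Paneth cells, at 771 in cKO and 1172 in WT, and Wnt3, at 17.5 in cKO and 30.2 in WT. Without the cell richest in Paneth-list UMIs in each library, the median was -0.90, with the sign reversed. Without the richest cell of each gene, over the same 27 genes, 0 were higher and 20 were lower, beside 328 and 737 of all 9364 genes. Mmp7, Clps and Wnt3 kept ratios of -0.89, -1.22 and -0.95 without their richest cells, whereas Defa30 and Defa22 had -0.40 and -2.10.

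**Figure D3:**
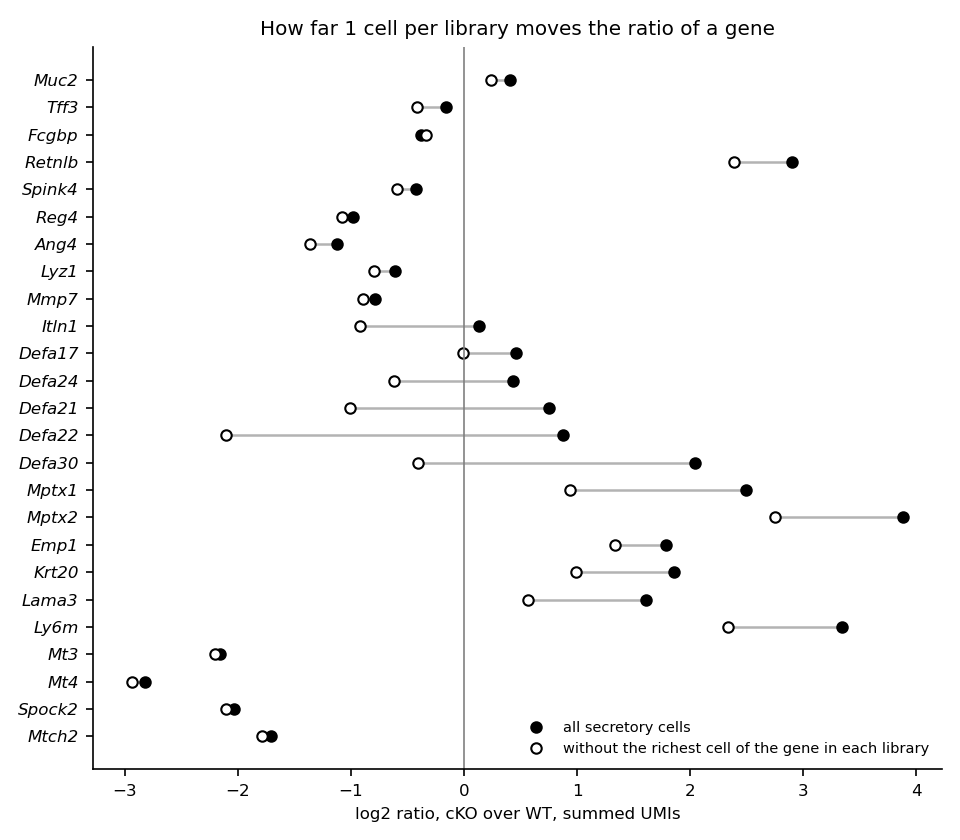
Log2 ratio of summed UMIs, cKO over WT, for the rule genes and for other genes named in the text, over all secretory cells (filled) and without the cell that held the most UMIs of that gene in each library (open). Defensins, Itln1 and Mptx1 move furthest, several of them across 0, while Mt3, Mt4, Spock2, Mtch2, Reg4 and Mmp7 move little.

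Wnt target and stem cell genes were the group with the largest share of lower genes among the epithelial lists. Of 27 measured, 12 were at least 1.5-fold lower in cKO and 0 higher, beside 5.8% and 5.15% of all genes. The median was -0.36 in secretory cells and -0.01 in the other gated cells, and it was -0.51 in goblet-type and -0.38 in Paneth-type cells. By the mean per cell 8 were lower and 0 higher (median -0.19), beside 1239 and 1003 of all 9364 genes. Without the richest cell of each gene 13 were lower and 0 higher, beside 737 and 328 of all genes. The list median was -0.07 in the top 3% of scores and -0.07 in male cells, against -0.63 in female cells.

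Notum, which removes the lipid from Wnt proteins, stood at 40.1 CPM in cKO and 95.4 in WT secretory cells (log2 ratio -1.25, interval -1.52 to -0.98), with a ratio of -0.17 in the other gated cells. Apcdd1, a membrane inhibitor, stood at 12.9 CPM in cKO and 51.8 in WT (-1.99, interval -2.49 to -1.55), with -0.55 in the other gated cells. Wif1, a secreted Wnt-binding inhibitor, stood at 133 CPM in cKO and 253 in WT (-0.93), Znrf3, which removes Wnt receptors, at 113 in cKO and 216 in WT (-0.93), and Nkd1, which dampens the signal inside the cell, at 97.2 in cKO and 180 in WT (-0.89).

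Of the transcription factors of the pathway, Lef1 stood at 20.9 CPM in cKO and 42.4 in WT (-1.01, interval -1.41 to -0.64) and Sp5 at 4.30 in cKO and 16.5 in WT (-1.90, interval -2.82 to -1.16). The stem cell receptor Lgr5 was at 116 CPM in cKO and 162 in WT, a ratio of -0.48 that did not reach 1.5-fold, and its ratio per cell was 0.23. Lrig1, which restrains growth factor receptors, had the highest ratio of the list, at 118 CPM in cKO and 85.9 in WT (0.46). The difference between secretory and other gated cells in these ratios was not tested. The list was scored on a set in which the Paneth-type share, where these genes leaned higher, was 20.0 points lower in cKO. Within types the list median was -0.51 in goblet-type and -0.38 in Paneth-type cells. The part of the type shares was not tested.

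**Figure D4:**
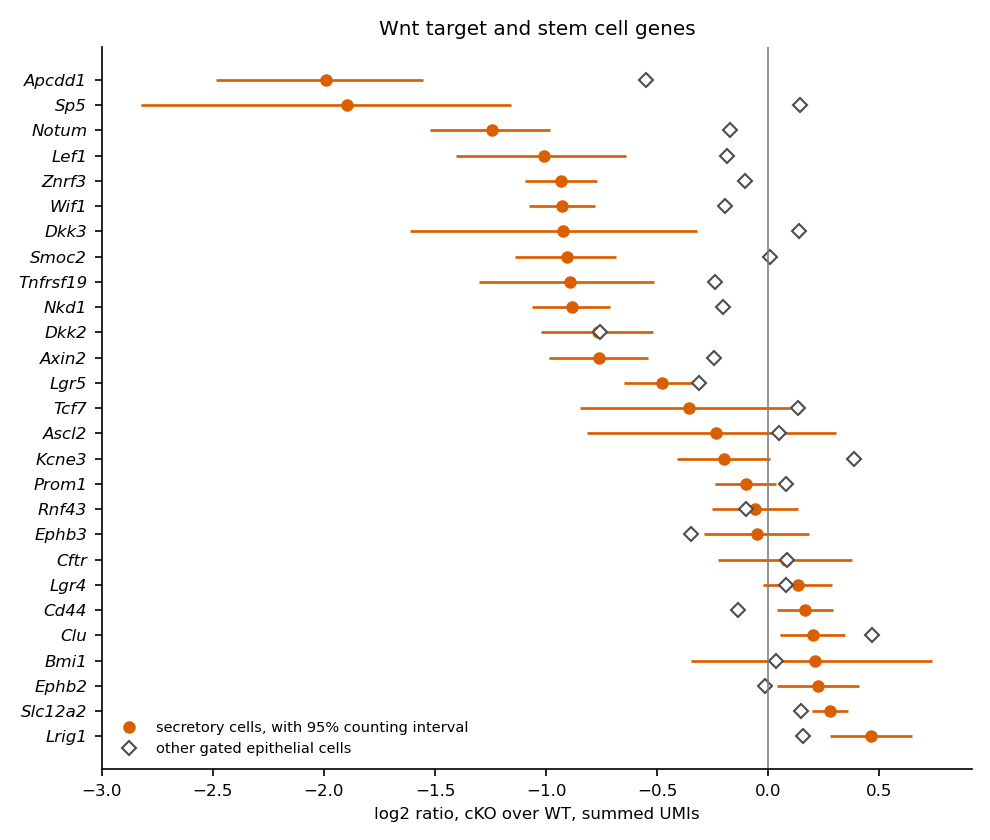
Log2 ratio of summed UMIs, cKO over WT, for 27 Wnt target and stem cell genes, in secretory cells (orange, with 95% counting intervals) and in the other gated epithelial cells (open diamonds). The upper 10 genes have secretory ratios below -0.8, and their diamonds lie between -0.55 and 0.14.

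Absorptive genes had 9 of 21 above and 4 below the 1.5-fold limits and a median of 0.53, against 0.03 in the other gated cells. Of all genes, 5.15% were above and 5.8% below these limits. Muc3 stood at 306 CPM in cKO and 114 in WT (1.42), Saa1, an acute-phase protein gene, at 276 in cKO and 96.9 in WT (1.51), and Car4, a membrane carbonic anhydrase, at 29.8 in cKO and 2.89 in WT (3.34), the last from 6 cKO and 5 WT cells. The guanylin genes were lower, with Guca2a at 297 CPM in cKO and 586 in WT (-0.98) and Guca2b at 132 in cKO and 272 in WT (-1.04). The median was 0.50 in goblet-type and -0.45 in Paneth-type cells, -0.52 in the top 3% of scores and 0.07 among cells with at most 15% mitochondrial UMIs, so it depended on type and cut.

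Genes of G2 and M phase, which mark dividing cells, had 23 of 26 members at least 1.5-fold higher in cKO and 0 lower (median 0.95). Of all genes, 5.15% were higher and 5.8% lower by summed UMIs. Mki67 stood at 135 CPM in cKO and 53.2 in WT, and Ube2c at 101.2 in cKO and 38.5 in WT. The median was 1.74 in Paneth-type cells and -0.02 in goblet-type cells, a difference that was not tested. By the mean per cell the median over the same 26 genes was -0.46, so the direction turned with the weighting of cells. Per cell, 1 of these genes was higher and 12 lower, beside 1003 and 1239 of all 9364 genes. The median UMI count was 35271 in cKO Paneth-type and 5467 in WT Paneth-type cells, and 12016 in cKO goblet-type and 8478 in WT goblet-type cells.

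Sterol synthesis genes had 0 of 31 higher in cKO and 8 lower (median -0.34, with 29 below 0), against a median of -0.20 in the other gated cells. Over all 9364 genes, 5.15% were higher and 5.8% lower, and 4893 had a ratio below 0. The same shares apply to the lists that follow. Of the secretory lineage factors, 0 of 14 were higher and 1 lower, Bhlha15, which organises secretory cells, at 9.75 CPM in cKO and 18.4 in WT. The 13 mitochondrially encoded transcripts had a median of 0.34, and 0 passed 1.5-fold. Of 30 interferon and class I antigen genes, 2 were higher and 4 lower (median -0.20). Iron and ferroptosis genes, the theme of the series, had 2 of 32 higher and 4 lower, with a median of -0.02.

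The genes of largest ratio that were higher in cKO, went the same way in both types and were at least as high as in the leukocyte gate were Mptx2, Ly6m, Mal, Sprr1a, Ly6g, Cwh43, Dlg2, Aldh1a3, Krt20, Emp1, Wfdc2 and Lama3. Mptx2, a mucosal pentraxin, stood at 153 CPM in cKO and 10.3 in WT secretory cells, beside 146 in cKO and 3.66 in WT in the other gated cells, and 1 cKO cell held 85.0% of it. Emp1, an epithelial membrane protein, stood at 410 CPM in cKO and 119 in WT (1.79), and Krt20, a keratin of surface cells, at 155 in cKO and 42.8 in WT (1.85). In cKO, 1 goblet-type cell of 119327 UMIs was the richest in Ly6m, Ly6g, Cwh43, Aldh1a3, Krt20, Emp1, Wfdc2 and Lama3. A cKO Paneth-type cell of 168530 UMIs, with 37 Muc2 and 90 Lyz1 UMIs, was the richest in Mal and Sprr1a. By the percentile rule given earlier, that cell was high in neither the goblet set nor the Paneth set. It held 71.8% of Mal and 39.9% of Sprr1a UMIs in cKO. The direction of these genes in Paneth-type cells without that cell was not tested.

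Dlg2, a scaffold protein gene, had the smallest share of its cKO UMIs in its richest cell of the 12, at 26.8%. It stood at 120 CPM in cKO and 29.8 in WT (2.01, interval 1.76 to 2.26), had a UMI in 18 of 86 cKO and 16 of 257 WT members, and had a ratio of 1.92 without its richest cell in each library. The next richest cKO cell held almost as much, 103 against 112 UMIs, and 5 cells held 85.2% of the UMIs in cKO and 76.2% in WT. Its ratio was 1.63 in goblet-type and 1.55 in Paneth-type cells and 0.88 in the other gated cells. The other 11 genes had ratios of 0.56 (Lama3) to 2.75 (Mptx2) without their richest cells. In the top 3% of scores Ly6m (-1.60), Mal (-1.003), Krt20 (-0.99), Cwh43 (-0.54), Lama3 (-0.029) and Ly6g (-0.025) were lower in cKO. In male cells Cwh43 (-2.31), Aldh1a3 (-1.72), Emp1 (-1.34), Mal (-0.85), Wfdc2 (-0.68), Lama3 (-0.65) and Sprr1a (-0.33) were lower in cKO.

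The genes of largest ratio that were lower in cKO included Hamp2, Mt4, Mt3, Spock2, Apcdd1, Mtch2, Limch1, Htra1, Cma1, Rnase1 and Ppargc1a. Hamp2, a hepcidin-family gene, stood at 3.44 CPM (12 UMIs) in cKO and 59.0 CPM (408 UMIs) in WT, and was a Paneth-type gene, at 5.87 CPM in cKO Paneth-type and 89.7 in WT Paneth-type cells. Mt4 and Mt3, which encode metallothioneins, stood at 33.0 and 46.7 CPM in cKO and at 234 and 210 CPM in WT, with log2 ratios of -2.82 and -2.16. Spock2, a secreted proteoglycan, stood at 72.5 CPM in cKO and 297 in WT (-2.03). Without the richest cell of each gene these ratios were -4.04, -2.94, -2.21 and -2.10, and the weakest of the genes named here was -1.73, for Htra1. By the mean per cell, however, Limch1 reversed its direction, as given in the section on processing.

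Hamp2 rested on few cells, with 5 cells holding 100% of its UMIs in cKO and 79.7% in WT. Mt3 had a UMI in 35 of 86 cKO and 152 of 257 WT members, and Spock2 in 50 cKO and 171 WT members. The other gated cells were lower in cKO as well, by smaller ratios of -0.31 for Hamp2, -0.45 for Mt4, -0.80 for Mt3 and -0.59 for Spock2. Ppargc1a, a coactivator of mitochondrial biogenesis, stood at 64.2 CPM in cKO and 182 in WT secretory cells (-1.504), with -0.49 in the other gated cells. The difference between the populations in these ratios was not tested.

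A subset of members with abundant Muc2 and little Tff3 was chosen after its values were seen. Of 24 cKO members with at least 100 Muc2 UMIs, 6 had fewer than 10 Tff3 UMIs and 18 had 50 or more, and of 48 such WT members 9 had fewer than 10, 8 had 10 to 49 and 31 had 50 or more. Of the Tff3-low cells, 5 of 6 in cKO and 8 of 9 in WT were goblet-type. They were not shallow: their median depth was 81798 UMIs in cKO and 47119 in WT, against 66578 in cKO and 58031 in WT for the cells with 50 or more. In cKO no cell fell between the groups.

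The Tff3-low cells had 15076 CPM of Muc2 in cKO and 12404 in WT, against 3561 in cKO and 5521 in WT for the Tff3-high cells. Their Tff3 was at 17.3 CPM in cKO and 38.9 in WT, against 3487 in cKO and 5413 in WT. Zg16 followed Tff3, at 1.92 CPM in cKO and 44.4 in WT, against 447 in cKO and 1490 in WT in the Tff3-high cells. The low Tff3 of these cells is fixed by their choice. The 8 WT cells in between had 3965 CPM of Muc2, 406 of Tff3 and 126 of Zg16. Only 2 of these 8 were goblet-type, and together they had 28581 CPM of Lyz1. Muc2 thus did not fall steadily with rising Tff3 across the WT groups, which also differed in cell type.

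Ccn3, B3gnt7 and Klk1, each higher in goblet-type than in Paneth-type cells, were also higher in the Tff3-low cells. Ccn3 had a UMI in 5 of 6 cKO and 9 of 9 WT Tff3-low cells, against 7 of 18 cKO and 5 of 31 WT Tff3-high cells, and stood at 365 CPM in cKO and 650 in WT, against 40.7 in cKO and 62.5 in WT. B3gnt7 stood at 317 CPM in cKO and 367 in WT, against 160 in cKO and 72.4 in WT. Klk1 stood at 1053 CPM in cKO and 1769 in WT, against 369 in cKO and 583 in WT. In the cKO Tff3-low cells the richest cell of each gene held 55.8% of Ccn3, 55.2% of B3gnt7 and 52.7% of Klk1 UMIs. Agr2 went opposite ways, at 7799 CPM in cKO and 3732 in WT Tff3-low cells, against 3567 in cKO and 7123 in WT. Reg4 likewise was higher in cKO and lower in WT Tff3-low cells. The differences of Ccn3, B3gnt7 and Klk1 were present in both libraries. Since the groups were formed from measured values they carry no test, and the part of cell type was not tested.

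**Figure D5:**
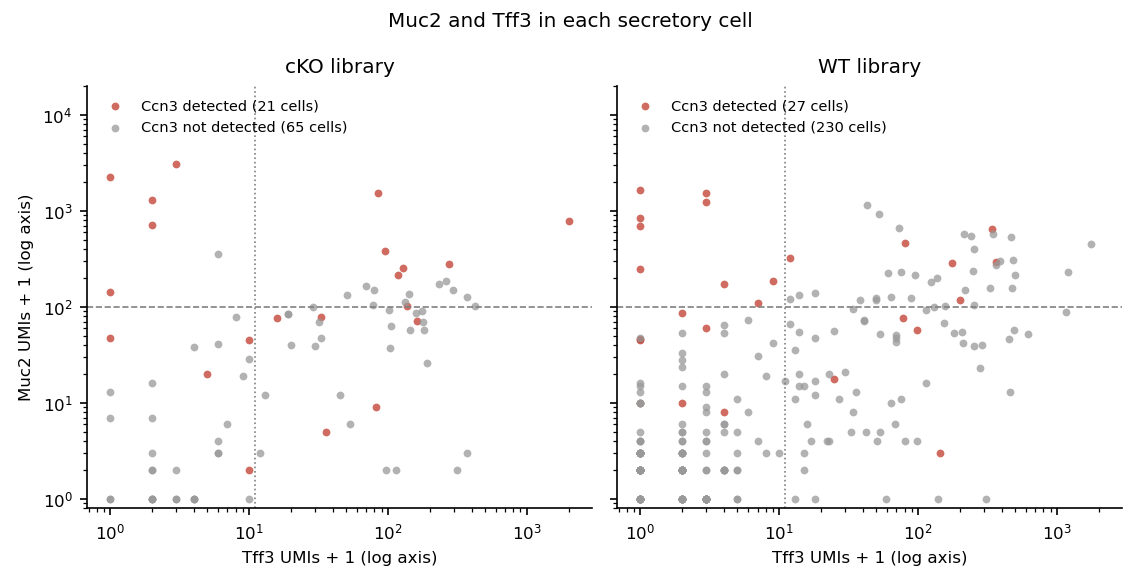
Muc2 UMIs and Tff3 UMIs, each plus 1 on log axes, in every secretory cell of the cKO library (left) and the WT library (right), coloured by whether Ccn3 was detected. Above the dashed line (100 Muc2 UMIs) and left of the dotted line (10 Tff3 UMIs) lie 6 cKO and 9 WT cells, of which 5 cKO and 9 WT cells have Ccn3.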

How the data were processed

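The authors deposited counts of unique molecular identifiers per gene and barcode for 1 cKO and 1 WT library, and per the file headers Cell Ranger 7.2.0 made them. Seurat 3.0 and mm10 appear in the submitters' processing notes, without a stated role. There were 32285 genes per matrix, 32235 of them matched by identifier to the GENCODE annotation of GRCm38.

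UMIs were summed over the cells of a population and library and scaled to 1000000 (CPM). Log2 ratios had 0.5 counts added. Intervals are exact (Poisson for levels, Clopper-Pearson for shares, conditional binomial for ratios), with differences of shares by the square-and-add rule. With 1 library per genotype no test or p-value was computed: calls are counts past a fold of 1.5 between genotypes or of 2 in both libraries between cells. The planned split into exclusive types left 5 cKO Paneth cells, under the minimum of 30, so the larger set mean was used. Doublets were marked with Scrublet in scanpy 1.11.5 at 0.8% per 1000 barcodes and kept. Named genes were the 12 each way of largest ratio in each contrast, without ribosomal, mitochondrial, immunoglobulin, T cell receptor, haemoglobin, sex-linked and unnamed genes, and examples of each list. Genes that the rule named and the text omits are not reported here. The members and lists were chosen with earlier results of these data known. The code was tested on simulated counts. The tools were Python 3.11.15, numpy 2.4.6, scipy 1.17.1, pandas 2.3.3 and Biopython 1.88.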

Additional observations from a re-analysis of the deposited data

How the results depend on the processing

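Of 22 alternatives, 3 were chosen after seeing the data, and 114 of the 141 recomputed values for the main results kept their direction and size. The cKO minus WT difference in the secretory share was -1.36 points for the top 3%, -6.97 for the top 10%, -1.39 in female cells and 0.029 when the top 6% was taken within each library, which equalises the shares by construction. The Paneth-type difference was -5.46 with exclusive types at the 90th percentile and below 0 in all 14 settings run. The goblet median was 0.31 by the mean per cell and -0.79 in female cells. The Paneth median was 0.050 with the top 6% per library, -4.26 in female cells, 1.03 in male cells, 0.67 with types weighted equally, -0.95 without the richest cell of each gene and -0.90 without the cell richest in Paneth-list UMIs. Genes higher in cKO numbered 256 by the mean per cell, 901 in female cells, 271 at 20 CPM, 59 at 100 CPM and 50 without the richest cell of each gene. Genes lower in cKO numbered 731 in female cells, 355 at 20 CPM and 102 at 100 CPM. At 20 and 100 CPM, 243 and 102 genes were higher in secretory cells, 216 and 56 were higher and 147 and 46 lower in goblet-type cells. Some of these settings keep fewer cells or genes, and the 20 CPM minimum keeps more genes. The cause of the changes was not tested. Of 663 other values, 538 moved by at most 0.5 on the log2 scale for genes, or for lists by at most the median counting error of their genes, 107 moved further and 18 reversed. In the top 3% these were the absorptive list (-0.52), Ly6m (-1.60), Mal (-1.003), Ly6g (-0.025), Cwh43 (-0.54), Krt20 (-0.99) and Lama3 (-0.029). After thinning it was Mal (-0.41), by the mean per cell the G2 and M phase list (-0.40 with the 10 CPM minimum applied to the per-cell means) and Limch1 (0.10), and in female cells the sterol list (0.17). In male cells they were Mal (-0.85), Sprr1a (-0.33), Cwh43 (-2.31), Aldh1a3 (-1.72), Emp1 (-1.34), Wfdc2 (-0.68) and Lama3 (-0.65). Contrasts of the types were not run in the top 3% or with exclusive types, which left under 30 cells in a type. Female members numbered 13 in cKO and 59 in WT, so those values rest on few cells. No paired analysis was possible because each genotype is 1 library with no replicate numbers to pair.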

Other observations

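Cma1, which encodes a mast cell chymase and was named by the rule for genes lower in cKO, was higher in secretory cells than in the leukocyte gate that holds the mast cells. It stood at 43.9 CPM in cKO and 130 in WT secretory cells, against 12.3 in cKO and 52.4 in WT leukocyte-gate barcodes and 0.68 in cKO and 3.25 in WT other gated cells. It was on the Paneth-type side, at 5.602 CPM in cKO goblet-type against 84.0 in cKO Paneth-type cells and 52.1 in WT goblet-type against 174 in WT Paneth-type cells. Of the other mast cell genes, Cpa3 stood at 2.01 CPM in cKO and 3.61 in WT, and Tpsb2 at 0.29 in cKO and 2.75 in WT secretory cells. Mcpt1, the remaining gene of the 4 mast cell markers, did reach 10 CPM in secretory cells, and leaned to the goblet-type side in cKO. The 4 markers together summed to 81.1 CPM in cKO and 177 in WT. The comparison was chosen after its values were seen, and its cause was not tested.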
